A study of Mus musculus with 37 samples.

Results

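Voltage-gated potassium channels of the Kv1 and Kv3 families were compared between dopamine and GABA neurons of the mouse ventral midbrain and between old and young mice. The 9 genes were the rows of the count tables whose symbol was Kcnc1, Kcnc2, Kcnc4, Kcna1, Kcna2, Kcna4, Kcna6, Kcnab1 or Kcnab2, out of 57180 genes in all. All 9 passed the filter on low counts in every comparison. RNA bound to GFP-tagged ribosomes was purified from DAT;NuTRAP and VGAT;NuTRAP mice and sequenced, with 1 library per mouse and 37 libraries in all. In these crosses a Cre recombinase, expressed from the dopamine transporter gene Slc6a3 (DAT-IRES-cre) or from the GABA transporter gene Slc32a1 (Vgat-ires-cre), removes a stop cassette from the NuTRAP transgene at the Rosa26 locus, so that cells with Cre activity make a GFP-labelled ribosomal protein. Both lines therefore carry the transgene and a Cre driver, and the tag follows the history of Cre activity rather than the present level of the driver gene. There were 10 young DAT;NuTRAP mice (5 females, 5 males), 9 old ones (4 females, 5 males), 10 young VGAT;NuTRAP mice (6 females, 4 males) and 8 old ones (5 females, 3 males). Old mice were 21 months of age, except 1 VGAT;NuTRAP female of 24 months, and young mice were 7 to 10.5 months. In the following, DAT and VGAT stand for the libraries of the DAT;NuTRAP and VGAT;NuTRAP mice.

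Kv channels open when the membrane is depolarised and let potassium leave the cell, which ends the action potential. Each channel is a ring of alpha subunits, and subunits of the same family can mix. Kv3 channels (Kcnc genes) open only at strongly depolarised voltages and close quickly, and are known for the brief spikes of fast-firing neurons, parvalbumin-positive GABA neurons among them. Kv1 channels (Kcna genes) open near threshold, sit at the axon initial segment, along the axon and at its terminals, and limit excitability and transmitter release. The Kcnab genes encode cytoplasmic beta subunits that bind Kv1 alpha subunits and affect their trafficking, and some beta isoforms speed up inactivation.

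The coding sequence around the selectivity filter, the stretch of the pore that lets potassium pass and holds back sodium, shows what the 7 alpha subunit genes have in common and how far their mRNAs can be told apart. Each window below has 24 bases, read 5′ to 3′ on the coding strand from the GRCm39 genome with the GENCODE annotation, and the capitals mark the 15 bases that encode the filter residues.
Kcnc1: acgACACTGGGCTATGGAgacatg
Kcnc2: actACCTTAGGTTACGGGgatatg
Kcnc4: acaACGCTTGGCTATGGGgacatg
Kcna1: accACTGTGGGATACGGTgacatg
Kcna2: acaACTGTAGGCTATGGAgacatg
Kcna4: acaACTGTGGGCTATGGGgacatg
Kcna6: accACGGTAGGTTATGGGgacatg
The 3 Kcnc windows encode 1 and the same string of 8 residues, and the 4 Kcna windows encode another. At the level of bases, 8 of the 24 positions varied, 7 of them the third base of a codon, and the 21 pairs of genes differed at 2 to 8 positions. The windows lie at chr7:46077394-46077417 (Kcnc1, plus strand), chr10:112292131-112292154 (Kcnc2, plus), chr3:107355109-107355132 (Kcnc4, minus), chr6:126619185-126619208 (Kcna1, minus), chr3:107012537-107012560 (Kcna2, plus), chr2:107126837-107126860 (Kcna4, plus) and chr6:126715604-126715627 (Kcna6, minus). Over whole transcripts, no stretch of 50 bases of Kcnc4, Kcna1 or Kcna4 was found in another gene, and 0.56% of those of Kcnc1 were. For Kcna6 the share was 38.6%, all of it in Gm26673, a gene on the opposite strand whose exons overlap those of Kcna6. Of its 5999 stretches, 79 were found in Kcna5, another Kv1 gene, as well. Gm26673 was counted at 0 to 3.94 CPM (counts scaled to a common library size, as edgeR gives them) in DAT and 1.15 to 6.95 CPM in VGAT. The strand setting used for counting is not given in the sources used here, so reads of Kcna6 and Gm26673 may have been split or dropped. Exons of Kcna2, Kcnab1 and Kcnab2 also overlap counted genes on the opposite strand (Gm27008, A330015K06Rik, and Chd5 with Nphp4), and 1.43%, 6.5% and 5.41% of their 50-base stretches were found in other genes. For Kcnc2 the share was 8.12%, all of it in Gm67470, a gene on the opposite strand that the count tables do not list.

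Libraries held 13841253 to 38235015 counts. The libraries of each line were labelled as a first or a second batch (DAT 8 and 11 libraries, VGAT 6 and 12), and both batches held both ages. Whether the first batch of DAT corresponds to the first batch of VGAT, and likewise for the second, is not given in the sources used here. The fits over both lines used a shared batch term, with a batch term per line as an alternative. All 6 dopamine neuron markers were higher in DAT, where they summed to 9423 to 14200 CPM against 735 to 3105 CPM in VGAT. All 3 GABA neuron markers (Slc32a1, Gad1, Gad2) were higher in VGAT, at 3189 to 4428 CPM against 196 to 624 CPM in DAT. DAT of the second batch stood apart. Their 6 oligodendrocyte markers summed to 1081 to 2229 CPM, against 492 to 745 CPM in DAT of the first batch, their 6 astrocyte markers to 770 to 1613 CPM against 494 to 1093, and their GABA markers to 196 to 449 CPM against 343 to 624. In 2 of them, DAT old female 2 and DAT young female 5, 517 and 434 of the 12562 genes that averaged over 2 CPM had no count, against at most 227 in any other library. Results that rest on these libraries are given with and without them.

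Of the 9 genes, 8 were higher in VGAT (GABA neurons) than in DAT (dopamine neurons). Each cell type came from its own mouse line, so differences of cell type and of line cannot be told apart here. In the edgeR quasi-likelihood test over all 37 libraries, with both ages given equal weight, 8 genes were called higher in VGAT (adjusted p below 0.05), and so were 30.4% of the 16898 genes tested. Kcna6 alone was called lower, as were 30.0% of the genes tested. The median log2 fold over the 9 genes was 1.14, and over all genes tested it was -0.01. For 6 of the 9 genes (Kcnc1, Kcnc2, Kcnc4, Kcna1, Kcna2 and Kcnab2) every VGAT library lay above every DAT library, which held for 5.49% of the genes tested. Oligodendrocyte, astrocyte and endothelial markers differed between the lines too, with 6 of 6, 6 of 6 and 3 of 3 called lower in VGAT (median log2 folds -1.45, -1.46 and -1.66). None of the 6 microglia markers was called, with 2 positive and 4 negative (median log2 fold -0.05). The oligodendrocyte markers summed to 492 to 2229 CPM in DAT and 244 to 954 CPM in VGAT, the astrocyte markers to 494 to 1613 and 163 to 503 CPM, and the endothelial markers to 33.5 to 158 and 14.7 to 36.0 CPM. Their part in the differences of the channel genes was not tested. In the young mice alone 8 genes were higher (25.4% of the genes tested) and none lower (24.3%), and in the old mice alone 8 were higher (24.1%) and 1 lower (22.7%).

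**Figure D1:**
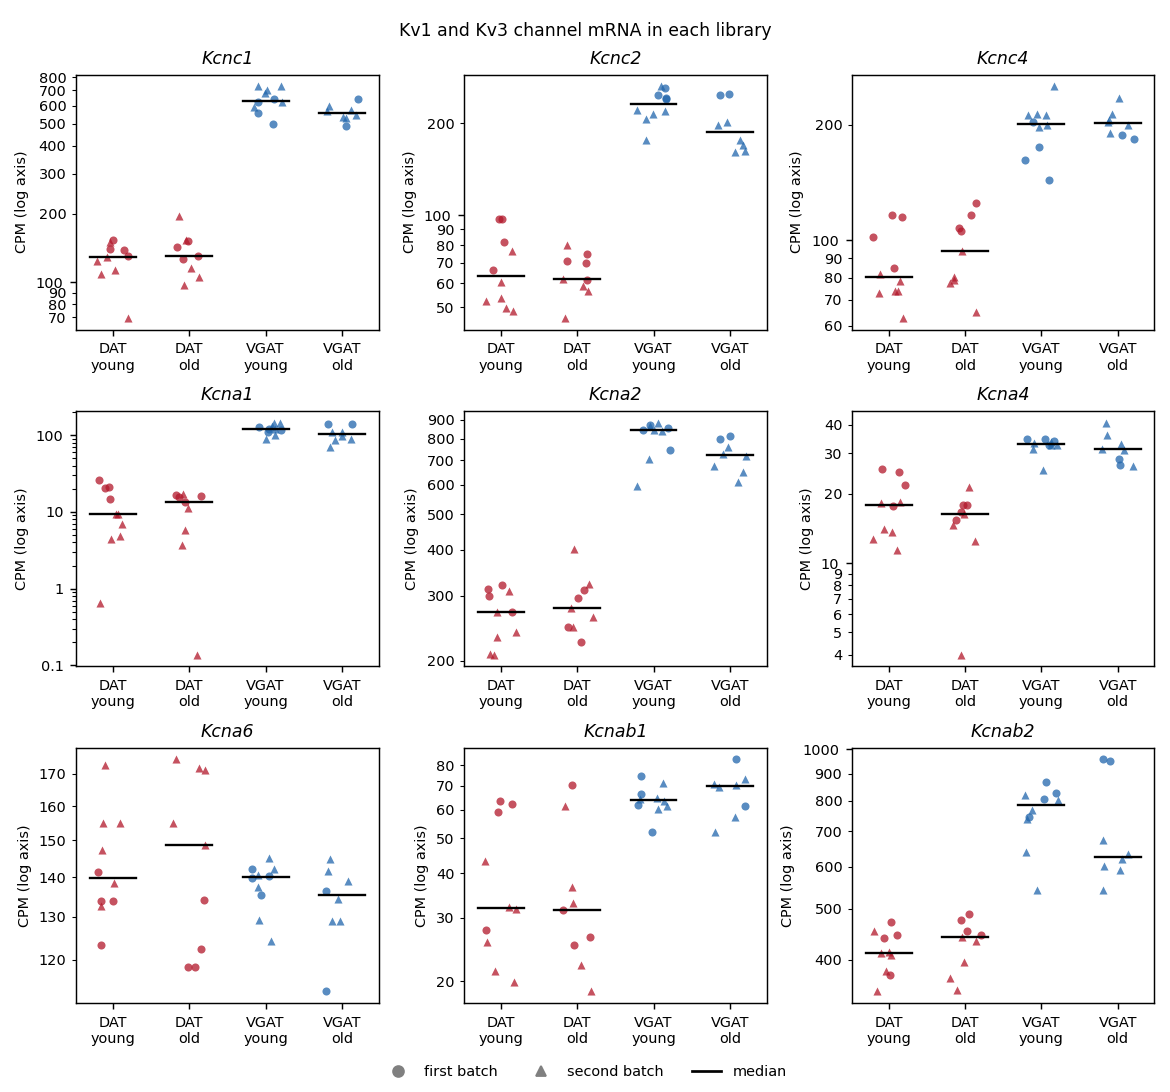
Each panel shows 1 gene, with CPM on a log axis and 1 point per library in young and old DAT (red) and VGAT (blue) mice; circles are the first batch, triangles the second, and bars are medians. The groups of the 2 cell types are separate for Kcnc1, Kcnc2, Kcnc4, Kcna1, Kcna2 and Kcnab2 and overlap for Kcna4, Kcna6 and Kcnab1, and old and young overlap in every panel.

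Of Kcnc1, Kcnc2 and Kcnc4, Kcnc1 differed most. Kcnc1 encodes a subunit of fast-spiking neurons and measured 69.5, 130 and 196 CPM (lowest, median and highest of 19 libraries) in DAT and 488, 595 and 731 CPM in 18 VGAT libraries. The lowest VGAT value was above the highest DAT value, and the fold was 4.46 (log2 2.16 ± 0.08 SE, edgeR adjusted p = 2.98e-24). Kcnc2, which is prominent in GABA interneurons, measured 46.2, 62.1 and 97.2 CPM in DAT and 162, 217 and 264.5 CPM in VGAT. Its groups did not overlap either, with a 3.18-fold difference (log2 1.67 ± 0.07, adjusted p = 1.74e-23). Kcnc4, whose product inactivates quickly, measured 62.8, 81.7 and 125 CPM in DAT and 143, 201 and 252 CPM in VGAT. The gap between its groups was the narrowest of the 3, and the fold was 2.20 (log2 1.14 ± 0.08, adjusted p = 2.59e-16).

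The Kv1 subunits ranged from the widest difference of the 9 to a small one in the other direction. Kcna1, an axonal low-threshold subunit, measured 0.138, 11.3 and 25.7 CPM in DAT and 71.0, 113 and 145 CPM in VGAT. The fold was 11.2 (log2 3.49 ± 0.27, edgeR adjusted p = 3.02e-13), and 0.444% of the genes tested had a larger log2 fold. The lowest DAT values were 2 counts (0.138 CPM) in DAT old female 2 and 12 counts (0.643 CPM) in DAT young female 5, the libraries named above, and without both the log2 fold was 3.31 ± 0.18. The mean of Kcna1 in DAT was 10.1% of its mean in VGAT. The same share was 9.49% for Gad2, 7.29% for Gad1, 22.4% for Slc32a1 and 10.6% for Pvalb (parvalbumin), and the part of RNA from GABA neurons in the Kcna1 level of DAT was not tested. In RNA pooled from many cells, fewer cells with an mRNA and less of it per cell cannot be told apart.

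Kcna2, the partner of Kcna1 in many axonal channels, measured 208, 271 and 401 CPM in DAT and 595, 778 and 884 CPM in VGAT. It was higher in every VGAT library than in any DAT library, by 2.68-fold (log2 1.42 ± 0.06, adjusted p = 4.73e-22). Kcna4 encodes the Kv1 subunit with its own inactivation domain and was per length of exon the least abundant of the 7 alpha subunits in VGAT. It measured 4.00, 16.8 and 25.8 CPM in DAT and 25.3, 32.7 and 40.8 CPM in VGAT, where 17 of 18 libraries lay above the highest DAT library. The log2 difference was 0.96 ± 0.11 (adjusted p = 1.52e-09).

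Kcna6 went the other way by a small amount. It measured 118, 141 and 175 CPM in DAT and 113, 138 and 145 CPM in VGAT, so that the groups overlapped over most of their range. VGAT was lower by a log2 difference of -0.15 ± 0.04 (edgeR adjusted p = 0.00490). In the old mice alone it was -0.19 ± 0.07 (adjusted p = 0.0145), and in the young ones -0.10 ± 0.06 (adjusted p = 0.187, 95% interval -0.22 to 0.03). The call in old mice was lost with the replicate block (edgeR adjusted p = 0.0583), without a batch term (0.0856), without a filter on low counts (0.118) and without DAT old male 5 (0.0722), and the call over both ages was lost without that filter (0.0994). The difference was larger in the second batch, where Kcna6 spanned 133 to 175 CPM in DAT and 124 to 145 CPM in VGAT. In the first batch, DAT spanned 118 to 141 CPM and VGAT 113 to 142 CPM, and the log2 difference was 0.01 ± 0.06 (adjusted p = 0.872). The glial markers were higher in the same DAT libraries of the second batch, as given above, and their part in the Kcna6 difference was not tested.

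Both beta subunits were higher in VGAT. Kcnab2, the main beta subunit gene of the brain, measured 349, 435 and 489 CPM in DAT and 543, 742 and 957 CPM in VGAT. The groups did not overlap and the fold was 1.69 (log2 0.76 ± 0.05, edgeR adjusted p = 6.53e-16). Kcnab1, whose product can inactivate Kv1 channels, measured 18.7, 31.7 and 70.3 CPM in DAT and 52.0, 64.6 and 83.0 CPM in VGAT. Only 6 of 18 VGAT libraries exceeded the highest DAT library, and the log2 difference was 0.83 ± 0.15 (adjusted p = 8.58e-06).

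The differences were also measured among libraries with the same batch label, which may not be the same batch in both lines. In the first batch 7 of the 9 genes were called higher in VGAT (22.4% of the genes tested) and none lower, and in the second batch 8 were higher (30.3%) and 1 lower (26.4%). Kcnc1 differed by a log2 fold of 2.01 ± 0.08 in the first batch and 2.28 ± 0.12 in the second, Kcnc2 by 1.66 ± 0.08 and 1.71 ± 0.09, and Kcna2 by 1.49 ± 0.07 and 1.41 ± 0.09. Kcnc4 differed by 0.68 ± 0.08 and 1.44 ± 0.06, Kcna1 by 2.82 ± 0.10 and 3.93 ± 0.39, and Kcna4 by 0.61 ± 0.09 and 1.15 ± 0.16. Kcnab1 differed by 0.56 ± 0.28 in the first batch (edgeR adjusted p = 0.132), where it was not called, and by 1.02 ± 0.15 in the second. Kcnab2 differed by 0.94 ± 0.06 in the first batch and 0.70 ± 0.06 in the second. The first batch had the larger value for Kcna2 and Kcnab2, and the second for the other genes called higher. The mean log2 CPM of Kcna1 in the second batch minus that in the first was -1.79 in DAT and -0.23 in VGAT. For Kcnc4 the corresponding differences were -0.51 and 0.27. The lower GABA markers and higher glial markers of DAT in the second batch, given above, moved with these values, and their part in them was not tested. Whether the differences between batches exceeded the error was not tested.

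**Figure D2:**
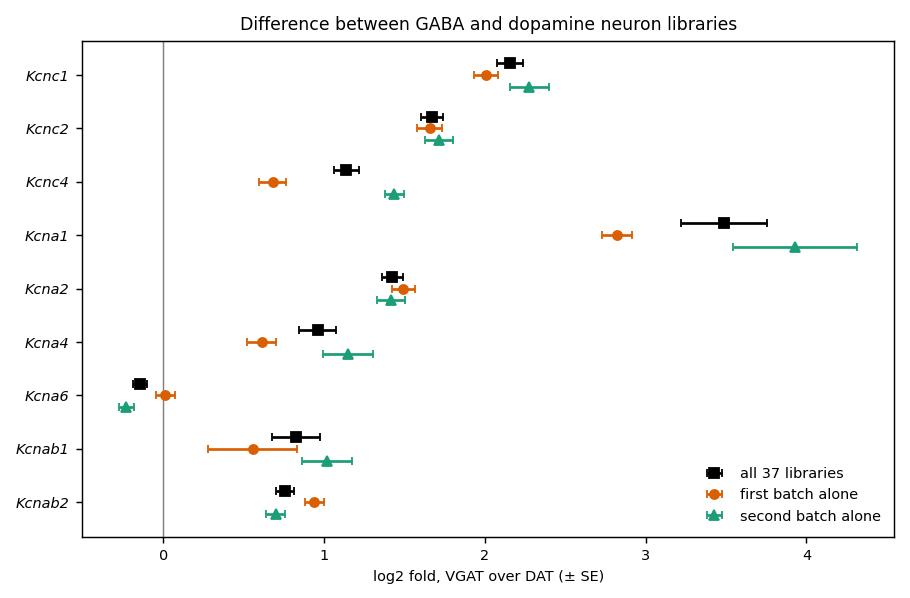
The log2 fold of VGAT over DAT (x axis) is plotted for each gene with its SE as the bar, for all 37 libraries (black squares), the first batch (orange circles) and the second batch (green triangles). The values of Kcnc1, Kcnc4, Kcna1, Kcna4 and Kcnab1 are smaller in the first batch and that of Kcnab2 is larger, each with bars that do not overlap. Kcna6 lies at 0.01 in the first batch and at -0.23 in the second.

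Per kilobase of exon, which allows a rough comparison of the levels of different genes, the order of the genes differed between the cell types. The length used was the union of all annotated exons, which can exceed that of the transcripts present. Reads of Kcna6 may also have been split or dropped, as given above, which would affect its place in the order. In DAT the beta subunit Kcnab2 was highest with 42.7 ± 4.27 CPM per kb (SD, n = 19), above Kcna6 in 19 of 19 libraries with no overlap. Kcna6 (24.3 ± 3.16), Kcna2 (20.5 ± 3.56) and Kcnc4 (17.9 ± 3.84) followed with overlapping ranges, then Kcnc1 (12.8 ± 2.64) and Kcnc2 (7.86 ± 1.79). Kcna4 (3.21 ± 0.97), Kcnab1 (2.998 ± 1.36) and Kcna1 (2.40 ± 1.52) were lowest and overlapped one another, while Kcnc2 lay above Kcna4 without overlap. In VGAT Kcnab2 was highest again (74.0 ± 13.2, n = 18), followed by Kcnc1 (59.3 ± 7.32) and Kcna2 (56.8 ± 6.92), and the ranges of these neighbours overlapped. Kcnc4 (39.5 ± 4.89), Kcnc2 (25.3 ± 4.08), Kcna1 (23.8 ± 4.53) and Kcna6 (22.8 ± 1.38) came next, each overlapping its neighbour. Kcna4 (6.20 ± 0.72) and Kcnab1 (5.24 ± 0.63) were lowest, and Kcna6 lay above Kcna4 in 18 of 18 libraries without overlap. The highest alpha subunit gene depended on the batch. In DAT of the first batch Kcnc4 (21.6 ± 2.44, n = 8), Kcna6 (21.6 ± 1.46) and Kcna2 (21.2 ± 2.55) were level, and in the second batch Kcna6 had the highest mean (26.3 ± 2.43, n = 11), above Kcna2 (20.1 ± 4.21) and Kcnc4 (15.1 ± 1.67). In VGAT Kcna2 had the higher mean in the first batch (60.9 ± 3.50 against 56.5 ± 6.89 for Kcnc1, n = 6) and Kcnc1 in the second (60.7 ± 7.41 against 54.8 ± 7.42, n = 12).

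As a share of the summed level per kilobase of the 7 alpha subunit genes, Kcna6 made up 27.7% ± 5.24 (SD) in DAT and 9.82% ± 1.03 in VGAT, and within DAT 22.8% ± 1.79 in the first batch and 31.3% ± 3.67 in the second. Kcnc1 made up 14.3% ± 1.82 and 25.3% ± 1.80, and Kcna1 2.58% ± 1.46 and 10.1% ± 1.41. Kcna2 made up 23.02% ± 2.50 and 24.3% ± 1.86, with overlapping ranges. The 3 Kcnc genes together made up 34.5% to 50.5% in DAT and 47.0% to 57.9% in VGAT, so that these ranges overlapped. These shares describe the 7 genes alone and carry the same limits of exon length and of the Kcna6 counts.

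**Figure D3:**
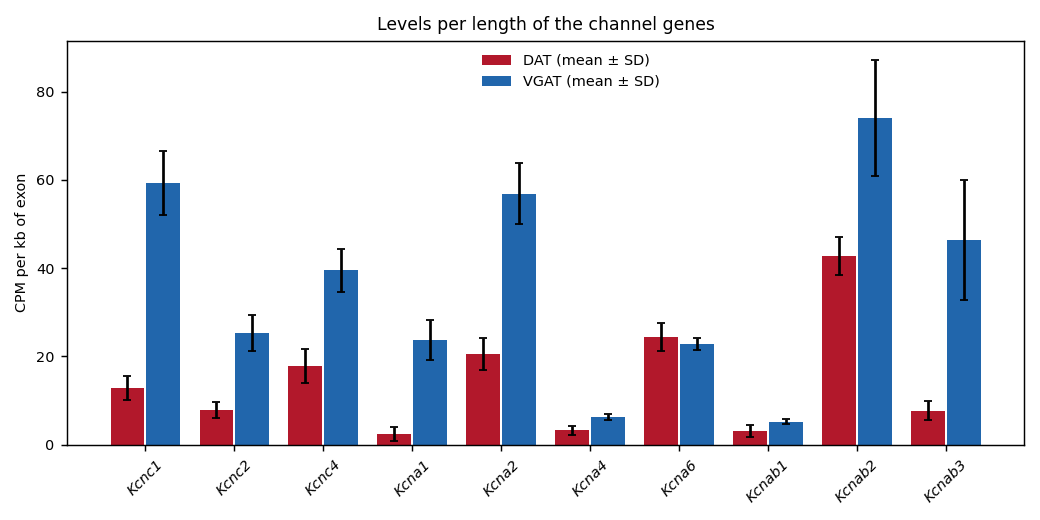
Bars give the mean level in CPM per kilobase of exon (y axis, from 0) with the SD over 19 DAT (red) and 18 VGAT (blue) libraries, for the 9 genes and for Kcnab3. Kcnab2 is the highest of the 9 genes in both, Kcna6 is about level between the cell types, and every other gene shown is higher in VGAT.

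With age, none of the 9 genes passed the threshold in GABA neurons, although Kcnc1 and Kcnc2 were the closest. In VGAT, 0.0256% of the 15607 genes tested were called in either direction (4 genes) and 934 had an unadjusted p under 0.05, as did 2 of the 9. DESeq2 and limma-voom called none of the 9 either. The median log2 fold of old over young was -0.07 over the 9 genes and -0.00 over all genes tested. Kcnc1 measured 498, 630 and 731 CPM (lowest, median, highest) in 10 young mice and 488, 556 and 642 CPM in 8 old ones. The ages overlapped, and the log2 fold was -0.19 ± 0.06 (edgeR unadjusted p = 0.00584, adjusted p = 0.683, 95% interval -0.32 to -0.06). Kcnc2 measured 176, 230.5 and 264.5 CPM in young and 162, 187 and 250 CPM in old mice, also overlapping, with a log2 fold of -0.18 ± 0.07 (unadjusted p = 0.0126, adjusted p = 0.768). Kcna2 gave -0.14 ± 0.07 (95% interval -0.28 to 0.00) and Kcna1 -0.17 ± 0.12 (-0.43 to 0.09). The intervals of Kcnc4 (-0.10 to 0.14), Kcna4 (-0.19 to 0.14), Kcna6 (-0.13 to 0.05), Kcnab1 (-0.07 to 0.25) and Kcnab2 (-0.25 to 0.10) all held 0.

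Within the batches of VGAT, the age difference of Kcnc1 passed the threshold in the second and not in the first. In the second it measured 590, 693 and 731 CPM in 6 young mice and 528, 556 and 599 CPM in 6 old ones, and 5 of the 6 young libraries lay above all old ones. The log2 fold within that batch was -0.26 ± 0.05 (edgeR adjusted p = 0.0198), and 0.333% of the genes tested were called. In the first batch the 4 young mice had 498, 559, 620 and 640.0 CPM and the 2 old ones 488 and 642 CPM, with a log2 fold of -0.04 ± 0.14, and 0% of the genes tested were called. For Kcnc2 the second batch held 176, 217 and 264.5 CPM in young and 162, 173 and 202 CPM in old mice, with a log2 fold of -0.27 ± 0.08 (adjusted p = 0.222). The first batch held 240.4, 242, 247 and 260.0 CPM in young and 247 and 250 CPM in old mice, with a log2 fold of 0.01 ± 0.08. Whether the age difference itself differed between batches was not tested, and the first batch held 2 old VGAT mice, 1 of which was the mouse of 24 months.

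Pvalb, the marker of fast-spiking GABA neurons that carry Kv3 channels, moved with these values in the second batch and not in the first. In the second batch it measured 181, 261 and 325 CPM in young and 82.9, 126 and 245 CPM in old VGAT mice, and in the first batch 299 to 448 CPM in 4 young and 436 and 614 CPM in 2 old mice. Its own age difference over both batches was -0.42 ± 0.25 on the log2 scale (edgeR unadjusted p = 0.105, adjusted p = 0.874). With the log2 CPM of Pvalb as a covariate, an alternative chosen after the data were seen, the age difference of Kcnc1 was -0.12 ± 0.06 (unadjusted p = 0.0769) and that of Kcnc2 -0.07 ± 0.05 (unadjusted p = 0.218). With the planned covariate of dopamine neuron markers, neither gene was called. Pvalb may itself differ with age, and fewer Pvalb neurons and less RNA per neuron cannot be told apart here. The fit with Pvalb is therefore no test of its part in the age differences, which was not tested.

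In dopamine neurons no gene of the 9 was called with age. The SE was larger than in VGAT for every gene but Kcnab2 (0.06 in DAT against 0.09 in VGAT). Among the 14889 genes tested 0.00672% were called (1 gene) and 786 had an unadjusted p under 0.05, none of them among the 9, and DESeq2 and limma-voom called none of the 9. The median log2 fold was 0.03 over the 9 genes and 0.00 over all genes tested. Kcnc1 measured 69.5, 130 and 154 CPM in 10 young and 97.7, 131 and 196 CPM in 9 old mice (log2 fold 0.10 ± 0.13, edgeR adjusted p = 1.00, 95% interval -0.16 to 0.36). Kcnc2 measured 48.8, 63.5 and 97.2 CPM in young and 46.2, 62.1 and 80.2 CPM in old mice (-0.08 ± 0.11, interval -0.30 to 0.14). The ages overlapped for both, as for the other 7. The paper lists Kcnc2 among the synaptic genes lowered with age in dopamine neurons. It used a looser threshold on the adjusted p and removed genes specific to astrocytes and microglia. It also corrected for collection date, sequencing date, duplication levels and read numbers, so the results rest on different settings. Kcna6 gave 0.03 ± 0.06 (-0.10 to 0.15) and Kcnab2 0.03 ± 0.06 (-0.09 to 0.15), the narrowest intervals of the 9. Kcna1 gave 0.03 ± 0.47, with an interval from -0.96 to 1.02, and 0.04 ± 0.25 without DAT old female 2 and DAT young female 5. A change of Kcna1 by nearly 1 on the log2 scale in either direction thus lay within the interval over all libraries.

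**Figure D4:**
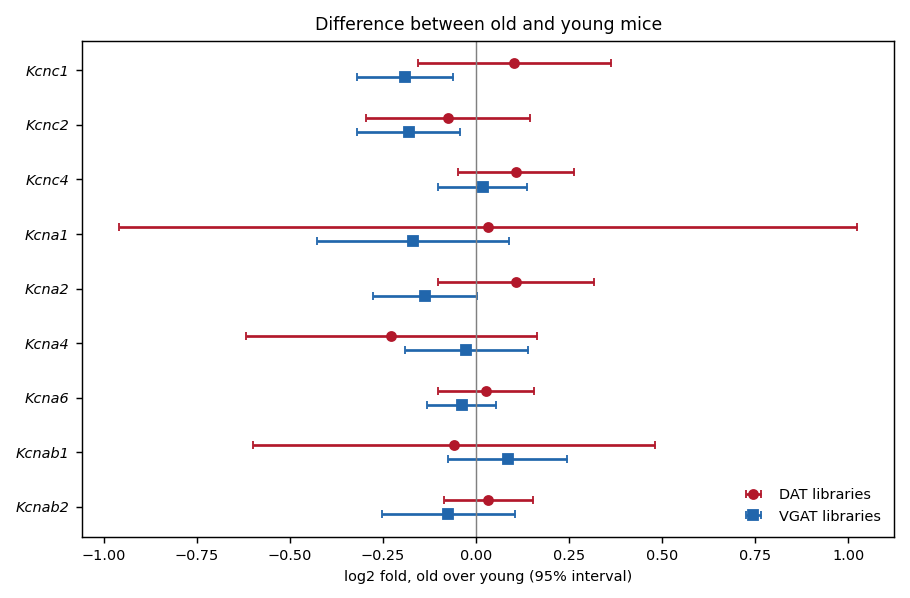
The log2 fold of old over young mice (x axis) is plotted with its 95% interval for each gene in DAT (red circles) and VGAT (blue squares). In VGAT the intervals of Kcnc1 and Kcnc2 exclude 0 before adjustment, in DAT every interval holds 0, and those of Kcna1 and Kcnab1 in DAT are the widest.

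The age difference was compared between the cell types by an interaction in 1 model of all libraries, VGAT minus DAT. No gene of the 16898 tested was called (0%), 467 had an unadjusted p under 0.05, and DESeq2 and limma-voom called none of the 9. The smallest p values among the 9 were those of Kcna2, with -0.26 ± 0.13 (edgeR unadjusted p = 0.0504, adjusted p = 1.00), and of Kcnc1, with -0.28 ± 0.15 (unadjusted p = 0.0741, 95% interval -0.59 to 0.03). Kcnc2, with -0.11 ± 0.13, had an interval of -0.38 to 0.16. The cell types are therefore not shown to differ in the age response of these genes.

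Sexes were also analysed apart. In DAT females and DAT males 0% of the genes tested were called, in VGAT females 0.0320% and in VGAT males 0.0315%, and none of the 9 was among them. At an unadjusted p under 0.05, Kcnab1 stood in DAT females and in DAT males, Kcnc1 and Kcnc2 in VGAT females, and no member in VGAT males. Of all genes tested, 4.05% did so in DAT females, 5.5% in DAT males, 5.59% in VGAT females and 5.12% in VGAT males. Kcnab1, the beta subunit gene, had opposite signs in the sexes of DAT mice. In DAT females it measured 59.1 and 63.5 CPM (first batch) and 19.9, 21.4 and 43.2 CPM (second) in young mice, and 70.3 CPM (first) and 61.4, 33.1 and 36.6 CPM (second) in old ones. In males it measured 62.3 and 27.7 CPM (first) and 25.7, 31.7 and 32.2 CPM (second) in young, and 26.6, 25.3 and 31.7 CPM (first) and 18.7 and 22.2 CPM (second) in old mice. Old and young overlapped in both sexes, and in males 1 young library, at 62.3 CPM, stood far above the rest.

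The log2 fold of Kcnab1 with age was 0.50 ± 0.24 in DAT females (edgeR unadjusted p = 0.0468, adjusted p = 1.00) and -0.62 ± 0.18 in DAT males (unadjusted p = 0.00402, adjusted p = 0.831). The interaction of age with sex, male minus female, was -1.10 ± 0.33 (95% interval -1.79 to -0.42, unadjusted p = 0.00284, adjusted p = 1.00), where 0% of the 16560 genes tested were called and 703 had an unadjusted p under 0.05. DESeq2 and limma-voom did not call Kcnab1, while the edgeR fit without a filter on low counts called it in DAT males (adjusted p = 0.0142) and for age by sex (adjusted p = 0.00865). Glial markers, none of them called, rose with Kcnab1 in DAT females, but in DAT males most rose while Kcnab1 fell. With age in DAT females all 6 oligodendrocyte, all 6 astrocyte and all 6 microglia markers were positive (median log2 folds 0.62, 0.66 and 1.42). In DAT males 6, 5 and 4 of them were positive (0.16, 0.30 and 0.37). For age by sex all 6 oligodendrocyte, 4 of 6 astrocyte and all 6 microglia markers were negative (-0.42, -0.19 and -1.08). Their summed levels overlapped between young and old females, with oligodendrocyte markers at 492 to 1450.0 CPM in young and 745 to 2229 CPM in old mice, and their part in the Kcnab1 values was not tested. Without DAT young male 1, a mouse of 10.5 months, the value in males was -0.34 (unadjusted p = 0.0637), and without DAT old female 2, which is among the libraries that stood apart, the value in females was 0.27 (unadjusted p = 0.235). Without both libraries that stood apart it was 0.53 in females (unadjusted p = 0.00550, adjusted p = 0.968), and the interaction was -1.08. In VGAT the same interaction for Kcnab1 was -0.14 ± 0.17 (interval -0.48 to 0.21), and 0% of genes were called. Kcnc1 and Kcnc2 in VGAT gave -0.16 ± 0.07 and -0.19 ± 0.06 in females and -0.18 ± 0.09 and -0.14 ± 0.13 in males, with interactions of -0.02 ± 0.13 and 0.05 ± 0.14.

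**Figure D5:**
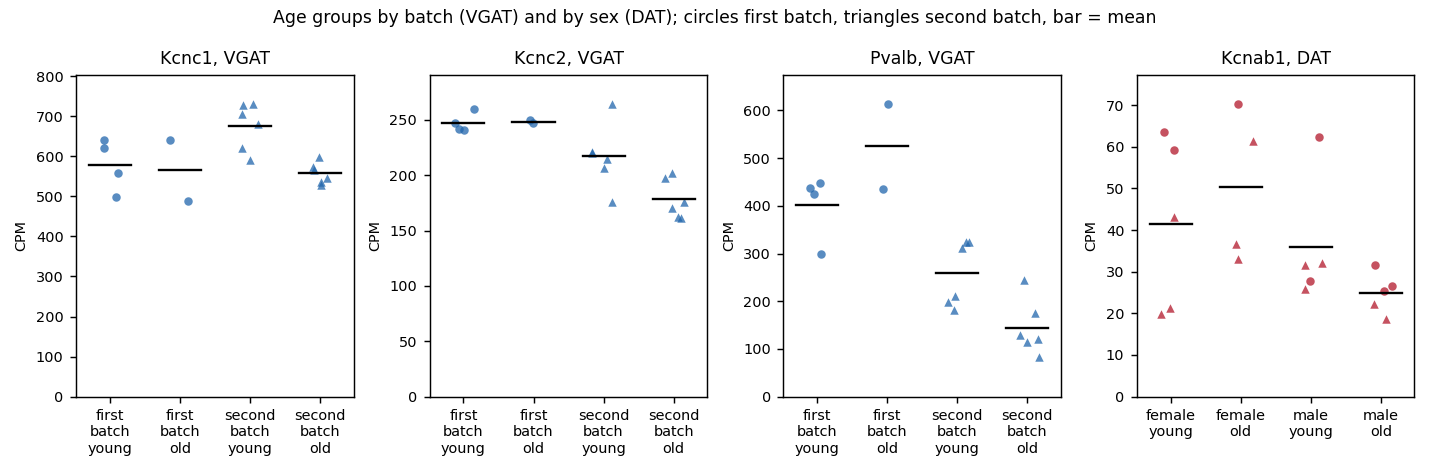
The first 3 panels give CPM (y axis, from 0) of Kcnc1, Kcnc2 and Pvalb in VGAT libraries by batch and age, and the last gives Kcnab1 in DAT libraries by sex and age; each point is a library (circles first batch, triangles second) and bars are means. In the second batch the means of old VGAT mice lie below those of young ones for all 3 genes, in the first batch the points of the ages overlap for each, and 1 young DAT male at 62.3 CPM of Kcnab1 stands above the other males.

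Other genes of the family were measured in the same fits. Kcnab3, which encodes a further beta subunit, measured 15.4 to 38 CPM in DAT and 94.9 to 237 CPM in VGAT (log2 2.53 ± 0.13, edgeR adjusted p = 8.09e-19), with no overlap between the cell types. Kcna3 was higher in VGAT at a low level (0 to 10.0 CPM against 3.93 to 16.1 CPM, log2 1.67 ± 0.42), and Kcna5 gave -0.13 ± 0.20. Kcna7 and Kcna10 did not pass the filter and were at most at 0.757 and 1.083 CPM in any library. None of Kcnab3, Kcna3 and Kcna5 was called with age in either cell type.

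Genes for scaffold, adhesion and secreted proteins at or near axonal Kv1 clusters differed between the cell types as well. The list is not limited to proteins that bind Kv1 channels. Of 14 such genes 13 were called higher in VGAT and 1 lower, against 30.4% and 30.0% of all genes tested, with a median log2 fold of 0.81 against -0.01 over all genes tested. The ones with the smallest p were Lgi2 (1.34 ± 0.06), which encodes a secreted ligand of the ADAM receptors, Epb41l3 (2.13 ± 0.09), a membrane skeleton protein of the paranode, and Adam23 (1.20 ± 0.05), such a receptor. The only one lower was Lgi1 (-0.76 ± 0.05). None of the 14 was called with age in VGAT, where 10 were negative, 4 had an unadjusted p under 0.05 and Dlg2, a scaffold that binds Kv1 tails, had the smallest p (-0.15 ± 0.04, adjusted p = 0.424), followed by Lgi2 (-0.27 ± 0.09) and Lgi3 (-0.14 ± 0.05). In DAT none of the 14 was called with age. Among 11 genes of the slower Kv2 family and the silent subunits that modify it, 7 were called higher in VGAT and 2 lower, against 30.4% and 30.0% of all genes tested, with a median log2 fold of 0.37. Kcng4 (2.68 ± 0.22) and Kcns2 (1.60 ± 0.16) were higher and Kcns3 lower (-1.70 ± 0.15), and none was called with age. Of 5 KCNE genes, small accessory subunits, 2 passed the filter in the comparison of cell types. Kcne2 was called lower in VGAT (-2.13 ± 0.71, edgeR adjusted p = 0.00881), as were 30.0% of the genes tested. In old mice alone it was not called (-1.25 ± 1.00, adjusted p = 0.324). It failed the filter in the age comparisons of DAT and of VGAT over both sexes. A gene this low can pass the filter through the group where it is higher, so no result is drawn from this call.

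The genes whose levels went along most closely with each member were found from the log2 CPM left after age, sex and batch were fitted, separately in 19 DAT and 18 VGAT libraries. Likeness was the lower of the 2 Pearson correlations, over 14559 other genes. For Kcna2 it was Scn8a, which encodes the sodium channel subunit of the initial segment (r = 0.872 in DAT, 0.905 in VGAT), then Syt2 (0.801 and 0.925) and Atp2b2 (0.790 and 0.848). For Kcnc1 it was Nat8l (0.788 and 0.852), then Hapln4, a component of the extracellular matrix around fast-spiking neurons (0.776 and 0.823), and Ppard (0.849 and 0.717). For Kcnc2 it was Esrrg (0.750 and 0.801), then Grin2a (0.695 and 0.847) and Adam21 (0.665 and 0.708). The closest genes were Anks1 for Kcnc4 (0.653 and 0.697), Asah2 for Kcna1 (0.749 and 0.798), Mideas for Kcna4 (0.783 and 0.761) and Ssr1 for Kcna6 (0.80 and 0.778). For the beta subunits they were Arl4c for Kcnab1 (0.737 and 0.670) and Slc25a25 for Kcnab2 (0.680 and 0.734). The points of each correlation share the library, its depth and its mix of cells, and the closest of many genes is high by selection, so these values are a description.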

How the data were processed

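The authors trimmed reads of the GFP-bound fraction, mapped them to the GRCm39 (mm39) assembly using STAR (2.7.10b) and summarised them per gene using featureCounts (version, annotation release and strand setting not given in the sources used here). Both deposited tables hold raw counts per gene. Their later filtering, batch correction and DESeq2 tests came after these tables. Every column (37 libraries) was used.

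The count model came from edgeR (4.0.16, under R 4.3.3), with the settings: TMM factors, filterByExpr with a minimum count of 10, robust quasi-likelihood test, batch term, Benjamini-Hochberg over all genes tested, calls at an adjusted p below 0.05. Folds are old over young or VGAT over DAT. Intervals cover 95% and come from the moderated degrees of freedom. Levels per kilobase divide CPM by the exon union of GENCODE vM39, which held 56620 of 57180 identifiers. Batch means use log2(CPM + 0.5). Every library came from a separate mouse. The fits were tested on simulated data.

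The 9 genes, the gene lists and the markers were chosen with earlier results of these data known. Genes named outside the 9 were other detected Kv1 and Kv3 genes (1 is not reported here), up to 3 genes of a list with the smallest p, the 3 most alike genes per member, marker genes and overlapping genes. Lgi1, the only gene lower in VGAT in the list for axonal Kv1 clusters, lies outside this rule and was named after its value was seen. All 70 pairs of libraries within a group differed by more than sampling noise (lowest chi-square per degree of freedom 5.46). Same-numbered old and young mice of a sex did not deviate together (17 pairs, r from -0.17 to 0.09), so numbers were not used as pairs. Libraries held 13841253 to 38235015 counts.

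Alternatives were RLE factors, total counts alone, DESeq2 1.42.0, limma-voom 3.58.1, no filter beyond 1 count, a minimum count of 50, no batch term, a batch term per line, single batches, sex or marker covariates, mice of 8 to 9 and 21 months only, a replicate block, and each library left out.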

Additional observations from a re-analysis of the deposited data

Results flagged for a closer look

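In groups of 4 to 10 libraries, each gene's highest and lowest library was compared with the others by Dixon's test at the 95% level, over 63 sets of a gene and a group, of which chance flags about 1 in 20. In 4 of these sets a library stood apart. DAT young male 1, the mouse of 10.5 months, had 115 CPM of Kcnc4 against 72.8 to 84.6 CPM in the other 4 young males, and 62.3 CPM of Kcnab1 against 25.7 to 32.2 CPM. VGAT young male 4 had 595 CPM of Kcna2 against 846 to 873 CPM in the other 3. VGAT young male 3 had 124 CPM of Kcna6 against 142 to 145 CPM. What set these libraries apart was not tested. The low Kcna1 values of DAT old female 2 and DAT young female 5 are given in the report and did not pass this test.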

How the results depend on the processing

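The 17 alternatives other than leaving out a library, and each of the 37 libraries left out, gave 3501 values for the 9 genes, and 14 of them changed a call. Of the 82 differences that were not called, 52 changed sign under at least 1 alternative, and no direction is claimed for them. The calls of Kcnc1, Kcnc2, Kcnc4, Kcna1, Kcna2, Kcna4 and Kcnab2 between cell types held under every alternative run. Kcna6, called lower in VGAT, was not called without a count filter (0 genes lower over both ages and 0 in old mice) or in the first batch alone (0 and 0, with the reversed sign, 0.0134, over both ages), and in old mice also not without a batch term (0) or with the replicate block (0, adjusted p = 0.0583). In young mice the second batch alone called it (1 gene). Without 1 library each, 0 to 1 genes were called lower in old mice, 0 without DAT old male replicate 5. With age, 1 gene was called in VGAT in the second batch alone (Kcnc1), and without a count filter 1 in DAT males and 1 for age by sex in DAT (Kcnab1, adjusted p = 0.0142 and 0.00865). Kcnab1 lost its call between cell types in the first batch alone, over both ages and in young and old mice (adjusted p = 0.132, 0.669 and 0.158). The replicate block changed no other call. The cause of these changes was not tested. Over all genes, the count called with age went from 1 to between 0 and 12 in DAT, from 4 to between 0 and 52 in VGAT, from 0 to at most 39 in DAT females and 106 in DAT males, from 5 to between 2 and 56 in VGAT females and 0 and 80 in VGAT males, from 0 to at most 33 and 63 for age by sex in DAT and VGAT, and from 0 to at most 1 for age by cell type. Between cell types it went from 8407 to 5373 in young and from 7907 to 4651 in old mice in the first batch alone. Another scaling moved the median of all genes by at most 0.06 from 0. Kcna1 had the fewest counts of the 9 genes, 2 in DAT old female 2, a library of 13841253 counts in which 517 commonly detected genes had none.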
